A study of Mus musculus with 12 samples.

Results

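The genes described are the 7 insulin-like growth factor binding proteins, Igfbp1 to Igfbp7, and the ligand gene Igf1, taken by their symbols from the deposited gene table, which gave 8 genes of 52550. They were followed across 12 RNA-seq libraries of the D2A1 and D2.OR lines, which are mouse mammary cancer lines raised from separate D2 hyperplastic alveolar nodule tumors. D2A1 is used as a line that grows out after dissemination and D2.OR as a line that stays dormant. Each line was grown flat on plastic (2D) or on top of a layer of growth-factor-reduced Matrigel (3D), with 3 libraries in each of the 4 groups (D2A1 2D, D2A1 3D, D2.OR 2D and D2.OR 3D). The 3D medium held horse serum, hydrocortisone, cholera toxin, insulin and Matrigel. The study's RNA-seq methods refer back to its general culture conditions, which give DMEM with high glucose for 2D work, whereas its description of the Matrigel assay places 2D cells in the 3D medium, so that medium and culture may differ together and their effects cannot be told apart. Exogenous insulin was therefore known to be present in 3D, and was not established for 2D. For RNA, each sample was pooled from several wells. The lines were not authenticated, and each stands for 1 tumor, so that a difference between lines is a difference between these 2 lines and not between dormant and proliferative tumors.

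IGF binding proteins are secreted proteins that hold IGF-I and IGF-II outside the cell, where they prolong the life of the ligand and limit its access to the IGF-1 receptor. Proteases such as pappalysin-1, encoded by Pappa, cut the binding proteins and release the ligand, and the stanniocalcins restrain that protease. In the mammary gland, binding proteins take part in involution, and Igfbp7, which binds IGF weakly, is known from the secretome of senescent cells.

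Each library held between 47589611 and 73325069 estimated read counts. Levels were compared between genes in TPM, which corrects read numbers for gene length and library size, and groups were compared with edgeR on the counts, with Benjamini-Hochberg adjustment over 16823 genes and batch as a term. The batch is the replicate number, and each batch was sequenced on its own lane. Only 3 libraries of 1 line stood behind each group and nothing states that they came from independent thawings, so p-values measure the spread between these libraries. In bulk RNA, fewer cells that express a gene and less RNA per cell cannot be told apart. The labelled cell type was checked with marker lists. The summed TPM of 9 luminal mammary markers was 206 to 299 in D2A1 2D and 1178 to 1730 in D2.OR 2D. In 3D it was 95.5 to 222 in D2A1, which overlapped the 2D range, and 429 to 891 in D2.OR, which lay below it. In D2A1 2D nearly all of the luminal sum was Krt18, at 204 to 294 TPM, whereas Krt8 did not exceed 2.02 TPM and Epcam 0.06 TPM. In D2.OR 2D most of it was Krt8, at 700 to 1022 TPM, and Krt18, at 440 to 666 TPM. Cdh1, the E-cadherin gene, ranged from 22.2 to 183 TPM in D2.OR 2D and did not exceed 0.28 TPM in D2A1 2D, and in D2.OR it fell from 2D to 3D (log2 change -1.36 ± 0.21, edgeR adjusted p = 0.0215). The 10 mesenchymal and fibroblast markers also summed to more in D2.OR 2D, 4820 to 6492 TPM against 874 to 2604 in D2A1 2D. Most of that sum was Vim and, in D2.OR, Col3a1, whereas Fbln1 of the same list was the other way, at 24.2 to 58.5 TPM in D2A1 2D and at most 0.12 TPM in D2.OR 2D. In 3D the sums overlapped the 2D ranges, at 1130 to 3196 TPM in D2A1 and 3417 to 7295 TPM in D2.OR. Within D2A1, Col3a1 was at 9.12 to 25.45 TPM in 2D and at 0.76 to 2.29 TPM in 3D (log2 change -3.13 ± 0.44, edgeR adjusted p = 0.0207). No other gene of the list passed there. The 7 mammary basal markers summed to 2.53 to 3 TPM in D2A1 2D, 0.8 to 2.45 in D2A1 3D, 10.04 to 16.8 in D2.OR 2D and 9.77 to 45.5 in D2.OR 3D, with Krt5 at most 0.03 TPM. The 7 macrophage and leukocyte markers summed to 24.6 to 72.8 TPM in D2A1 2D, 40.4 to 192 in D2A1 3D, 17.9 to 51.2 in D2.OR 2D and 12.7 to 55.8 in D2.OR 3D. Most of that sum was Cd14, at 30.3 to 185 TPM in D2A1 3D, and Cd68, at 6.84 to 32.1 TPM in D2A1 2D, whereas Tyrobp, a leukocyte marker, was at 0 in all 12 libraries and Adgre1, a macrophage marker, did not exceed 0.03 TPM. The 6 endothelial markers summed to at most 0.91 TPM in any library. The 5 adipocyte markers summed to 59.8 to 491 TPM in D2.OR 3D and to 4.44 to 27.2 TPM in D2.OR 2D. The part of these marker differences in the results was not tested.

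The members differed first in whether they were expressed at all. Igfbp1, a binding protein made mainly by liver, had a count of 0 in all 12 libraries. This allows at most 0.0409 to 0.063 CPM, the counts scaled to library size (3 counts, counting error only). For this limit the library total alone was used, without the normalization of the test. Igfbp3, the main carrier of IGF in serum, did not exceed 3 counts in any library. Igfbp2 had 21 counts in D2.OR 3D replicate 1 and at most 3 in each of the other libraries, so a single library held most of its counts. Igfbp1 and Igfbp3 are neighbours on chromosome 11, separated by 3539 bases, and Igfbp2 and Igfbp5 are neighbours on chromosome 1, separated by 5457 bases and read toward each other. The neighbours Igfbp2 and Igfbp5 were not alike in level, since Igfbp5 reached 8.15 TPM in D2.OR 3D. After the filter on low counts 5 of the 8 genes were tested, namely Igfbp4, Igfbp5, Igfbp6, Igfbp7 and Igf1. Igfbp7 passed through the D2A1 libraries only, so it had to differ between the lines once it passed, whereas the other 4 would have passed on the libraries of either line.

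The sequences upstream of the start site are shown for the 3 binding protein genes whose difference between the lines was largest in level or in ratio. Igfbp4 and Igfbp7 were higher in D2A1 and Igfbp5 was higher in D2.OR. The windows are the 250 bases before the RefSeq start site on GRCm38.p6, written 5′ to 3′ on the strand of the gene. Capitals mark matches to a TATA box (TATAAA), a GC box (GGGCGG), a cAMP response element (TGACGTCA) or an E-box (CACGTG), each sought on both strands, and no 2 of these motifs overlapped.
Igfbp4, chr11:99040994-99041243, plus strand: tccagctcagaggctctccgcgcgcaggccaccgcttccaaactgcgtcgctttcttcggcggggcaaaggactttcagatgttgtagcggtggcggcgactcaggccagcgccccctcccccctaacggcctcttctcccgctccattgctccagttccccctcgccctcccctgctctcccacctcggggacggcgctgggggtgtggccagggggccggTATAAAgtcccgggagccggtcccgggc
Igfbp5, chr1:72874866-72875115, minus strand: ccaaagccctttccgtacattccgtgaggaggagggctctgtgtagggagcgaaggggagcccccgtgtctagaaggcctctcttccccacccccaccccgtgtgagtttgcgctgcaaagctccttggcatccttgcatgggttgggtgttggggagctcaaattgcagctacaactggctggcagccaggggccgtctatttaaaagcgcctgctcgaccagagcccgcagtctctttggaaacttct
Igfbp7, chr5:77408046-77408295, minus strand: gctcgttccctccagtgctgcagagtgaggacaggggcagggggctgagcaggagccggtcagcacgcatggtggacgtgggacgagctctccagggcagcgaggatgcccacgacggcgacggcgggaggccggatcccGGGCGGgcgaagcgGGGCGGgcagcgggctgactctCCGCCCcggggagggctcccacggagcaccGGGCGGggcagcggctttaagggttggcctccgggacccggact
The Igfbp4 window held 1 TATA box, whose first base lies 28 bases before the start, and 12.4% of 32851 promoter windows of this length held such a match. The Igfbp7 window held 4 GC boxes, a motif present at least once in 32.7% of windows. None of the 4 motifs was present in these letters in the Igfbp5 window. The Igfbp4 and Igfbp7 windows had a GC content of 69.2% and 74%, against 58.8% for Igfbp5 and a median of 52.4% over all windows. This did not follow the direction between the lines, since the window of Igfbp6, a gene also higher in D2A1, had 49.6%. The cAMP response element and the E-box were found in 1.55% and 6.02% of all windows and in none of these 3. The bases that follow the RefSeq start of Igfbp7 were not found unbroken in a GENCODE transcript of the gene, so its annotated start differs between these sources. The start of Igfbp5 differs too, since in the annotation used for the counts the gene begins at base 72874884, inside the window shown. A match describes the sequence and says nothing of whether a factor binds there.

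Igfbp4, which encodes a binding protein that inhibits IGF action and is released from its ligand by pappalysin-1, was by far the most abundant member (ENSMUSG00000017493.12, chr11:99041244-99054392). Its level in D2A1 2D was 128, 1127 and 674 TPM in replicates 1, 2 and 3, and in D2A1 3D it was 156, 739 and 572 TPM. In D2.OR 2D it was 33.9, 231 and 122 TPM, and in D2.OR 3D it was 35.6, 43.3 and 63.2 TPM. The group means were 643 ± 500, 489 ± 300, 129 ± 98.6 and 47.4 ± 14.2 TPM (SD, n = 3 each). The 2D groups overlapped, because D2A1 replicate 1 lay below D2.OR replicate 2, whereas the 3D groups did not. Replicate 1 was the lowest library of every group, so the level moved with the batch in both lines. Within a batch D2A1 was always the higher line, by 3.76, 4.89 and 5.54 times in 2D and by 4.36, 17.1 and 9.05 times in 3D, in TPM. The fitted log2 fold change of D2.OR against D2A1 was -2.12 ± 0.40 (SE) in 2D (edgeR adjusted p = 0.00216) and -3.04 ± 0.42 in 3D (adjusted p = 0.000335). Without the batch term the 2D difference was of like size (-2.19) and missed the threshold (edgeR adjusted p = 0.0561).

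The order of the group means of Igfbp4 was D2A1 2D, D2A1 3D, D2.OR 2D and D2.OR 3D, and the steps with culture within a line did not pass the test. The neighbours D2A1 3D and D2.OR 2D differ in both line and culture and were not compared. In D2.OR, the log2 change from 2D to 3D was -1.03 ± 0.40, with an adjusted p of 0.223. In batches 2 and 3 the 3D library of D2.OR was 5.33 and 1.92 times lower than its 2D partner, whereas in batch 1 the ratio of 3D to 2D was 1.05 in TPM. In the scaled counts that were tested, batch 1 fell too, by 0.14 on the log2 scale. With replicate 1 of every group left out, the D2.OR change was -1.64 and passed (edgeR adjusted p = 0.0156), and it also passed without D2.OR 3D replicate 1 alone (-1.69, adjusted p = 0.0289). In D2A1 the corresponding change was -0.10 ± 0.38 (95% interval -0.97 to 0.76), which did not pass. The difference between these culture effects was -0.93 ± 0.55 (adjusted p = 0.399 by edgeR), and it passed without all replicates 1 (-1.41, adjusted p = 0.0431). Leaving out all replicates 1 raised the calls over all genes from 273 to 1412 in D2.OR, from 586 to 6120 in D2A1 and from 4 to 2999 for the interaction, so a call gained in that setting is not particular to the gene.

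**Figure D1:**
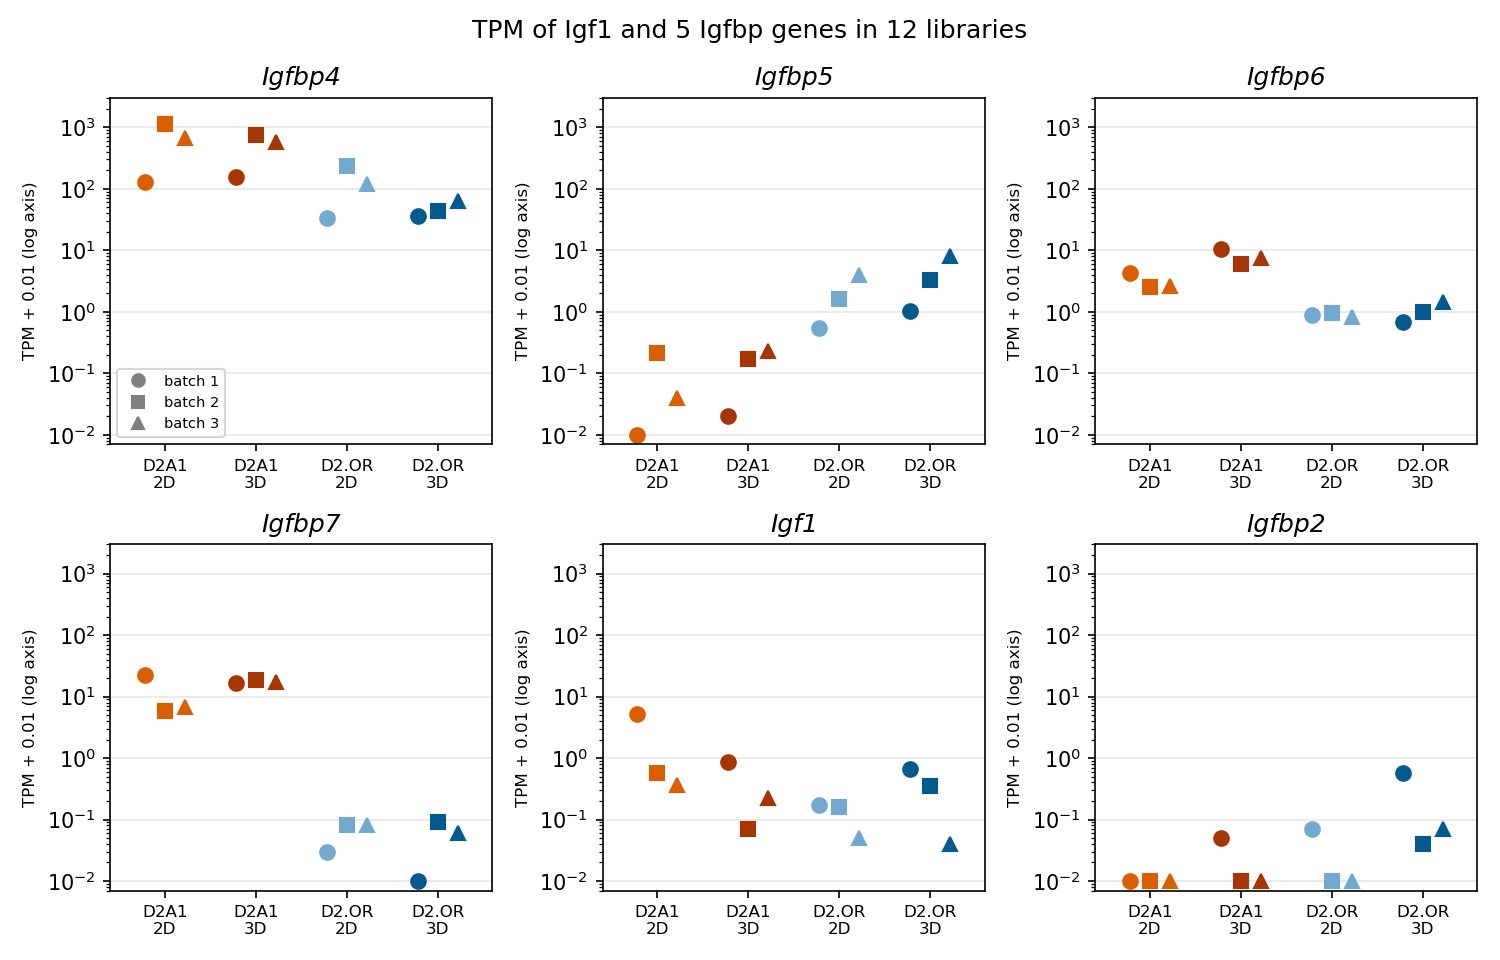
TPM, with 0.01 added and on a log axis, of 6 members in each of the 12 libraries, by group on the horizontal axis. Each point is 1 library and its shape gives the batch. Igfbp4 lay highest throughout, Igfbp7 was near 0 in all 6 D2.OR libraries, and Igfbp5 was higher in D2.OR.

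Igfbp5, which encodes a binding protein that attaches to extracellular matrix and rises during mammary involution, was the member that was higher in D2.OR (ENSMUSG00000026185.8, chr1:72857932-72874884). In D2A1 it was at 0, 0.2 and 0.03 TPM in 2D and at 0.01, 0.16 and 0.22 TPM in 3D. In D2.OR it was at 0.54, 1.63 and 3.9 TPM in 2D and at 1.03, 3.24 and 8.15 TPM in 3D. No D2A1 library reached the lowest D2.OR library in either culture. The log2 difference of D2.OR against D2A1 was 4.88 ± 0.81 in 2D (edgeR adjusted p = 0.00106) and 5.10 ± 0.76 in 3D (adjusted p = 0.000506). Its D2A1 counts ran from 0 to 55 per library, so these fold changes rest on few reads on the D2A1 side, and without D2A1 2D replicate 2 or all replicates 2 the 2D value reached as much as 7.66. In D2.OR the TPM ratios of 3D to 2D were 1.91, 1.99 and 2.09 in batches 1, 2 and 3, yet the fitted change of 0.95 ± 0.61 did not pass (adjusted p = 0.453). Fitted on the D2.OR libraries alone, it was 0.97 and passed (edgeR adjusted p = 0.0197), in a fit that called 5.16% of all genes. The spread between batches within each D2.OR group was larger than that step.

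Igfbp6, which encodes a binding protein with a preference for IGF-II, was higher in D2A1 and was the only member whose change with culture passed the test (ENSMUSG00000023046.6, chr15:102144362-102149511). Its level in D2A1 2D was 4.22, 2.53 and 2.62 TPM and in D2A1 3D it was 10.7, 6.02 and 7.39 TPM, so that all the 3D libraries lay above the 2D libraries. In D2.OR 2D it was 0.87, 0.93 and 0.82 TPM and in D2.OR 3D it was 0.67, 0.98 and 1.41 TPM, and these groups overlapped. The difference of D2.OR against D2A1 was -1.68 ± 0.35 on the log2 scale in 2D (edgeR adjusted p = 0.00359) and -2.96 ± 0.35 in 3D (adjusted p = 0.000147).

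In D2A1, Igfbp6 was 1.46 ± 0.32 higher on the log2 scale in 3D than in 2D (edgeR adjusted p = 0.0477), and the TPM ratios of 3D to 2D were 2.53, 2.38 and 2.82 in the 3 batches. The adjusted p lay close to the threshold and passed it in 9 of 24 alternative settings. It was lost when any of 10 of the 12 libraries was left out, the exceptions being D2A1 2D replicate 1 and D2.OR 3D replicate 1, and over all fits that left out a library or a replicate number the change stayed between 1.26 and 1.74. In D2.OR the change was 0.19 ± 0.36 (95% interval -0.61 to 0.997), and the difference between the culture effects of the lines was -1.27 ± 0.48 (unadjusted p = 0.0263 and adjusted p = 0.225 by edgeR), which did not pass.

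Igfbp7, which encodes a secreted protein of basement membranes and of the senescent secretome, was all but absent from D2.OR (ENSMUSG00000036256.13, chr5:77349240-77408041). In D2A1 it was at 22.6, 5.88 and 6.8 TPM in 2D and at 16.6, 18.2 and 17.1 TPM in 3D. In D2.OR it did not exceed 0.07 TPM in 2D or 0.08 TPM in 3D, from 0 to 3 counts per library. It was therefore at least 119-fold lower in D2.OR in 2D and at least 211-fold lower in 3D, with the D2.OR libraries set at a floor of 3 counts each. The 2D bound rested on D2A1 2D replicate 1 and was at least 63.2-fold without it, an alternative chosen after seeing the data, while the 3D bound was at least 203-fold without any 1 of the D2A1 libraries. No p is given for this difference, since the gene was tested only because D2A1 expressed it. The gene overlaps Polr2b on the opposite strand, and the strand setting of the counting is not given in the sources used here. Polr2b stood at 56.2 to 96.3 TPM over the 12 libraries, the D2.OR libraries in which Igfbp7 had almost no counts included.

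The culture comparison of Igfbp7 in D2A1 turned on 1 library. In batches 2 and 3 the 3D libraries were above their 2D partners, whereas in batch 1 the 2D library was the highest of all at 22.6 TPM. The fitted change was 0.88 ± 0.48 (edgeR adjusted p = 0.243). Without D2A1 2D replicate 1 it was 1.72 and passed (adjusted p = 0.00512), and without replicate 1 of every group it was 1.64 (adjusted p = 0.000915). These fits called 30.3% and 36.3% of all genes, respectively, against 3.48% in the main fit, so a call gained there is not particular to the gene. In D2.OR both cultures were at the floor and no fold can be given.

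Igf1, the ligand gene, was scarce in all groups (ENSMUSG00000020053.18, chr10:87858265-87937042). It was at 5.18, 0.57 and 0.35 TPM in D2A1 2D and at 0.84, 0.06 and 0.21 TPM in D2A1 3D. In D2.OR it was at 0.16, 0.15 and 0.04 TPM in 2D and at 0.66, 0.34 and 0.03 TPM in 3D. Replicate 1 was the highest library of all 4 groups in TPM, although in D2.OR 2D replicate 2 had more counts (18) than replicate 1 (14). The counts behind these values ran from 5 to 352, and TPM of so few reads depends on how they were assigned to isoforms. D2A1 3D replicates 2 and 3 both had 5 counts, with an effective gene length of 1946 and 545 bases, respectively, which gave 0.06 and 0.21 TPM. Igf1os, an antisense transcript over the gene, did not exceed 0.22 TPM.

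In 2D, Igf1 was lower in D2.OR by a log2 change of -2.96 ± 0.86 (edgeR adjusted p = 0.0189), with no overlap of the groups. This call was lost without D2A1 2D replicate 1 (-2.54, adjusted p = 0.0517), without D2.OR 2D replicate 1 (-1.92, adjusted p = 0.0675) and without all replicates 1 (-1.83, adjusted p = 0.0526). It was also lost, with a larger change, without all replicates 3 (-3.28, adjusted p = 0.0737) and without the batch term (-3.65, adjusted p = 0.0519). In 3D the difference was 1.03 ± 0.81 (adjusted p = 0.305) and the groups overlapped. It passed when replicate 1 of every group was left out (2.32, adjusted p = 0.0391), and its sign turned when TPM replaced counts. In D2A1, Igf1 was lower in 3D than in 2D in all 3 batches, by 6.17, 9.5 and 1.67 times in TPM, with a fitted change of -2.72 ± 0.78 that missed the threshold (edgeR adjusted p = 0.066). It passed without all replicates 1 (-3.42, adjusted p = 0.0122), without D2A1 3D replicate 1 (-3.98, adjusted p = 0.0404) and by DESeq2 (adjusted p = 0.00792). These settings called 36.3%, 12.8% and 23.1% of all genes in this comparison, respectively, against 3.48% in the main fit. In D2.OR the change was 1.27 ± 0.86 (adjusted p = 0.48), upward in batches 1 and 2 and not in batch 3. The difference between these culture effects was 3.99 ± 1.15 (unadjusted p = 0.00709 and adjusted p = 0.16 by edgeR), which missed the threshold but passed without all replicates 1 (4.15, adjusted p = 0.0346) and by DESeq2 (adjusted p = 0.0277). For the interaction, the latter settings called 17.8% and 5.96% of all genes, respectively, against 0.0238% in the main fit.

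**Figure D2:**
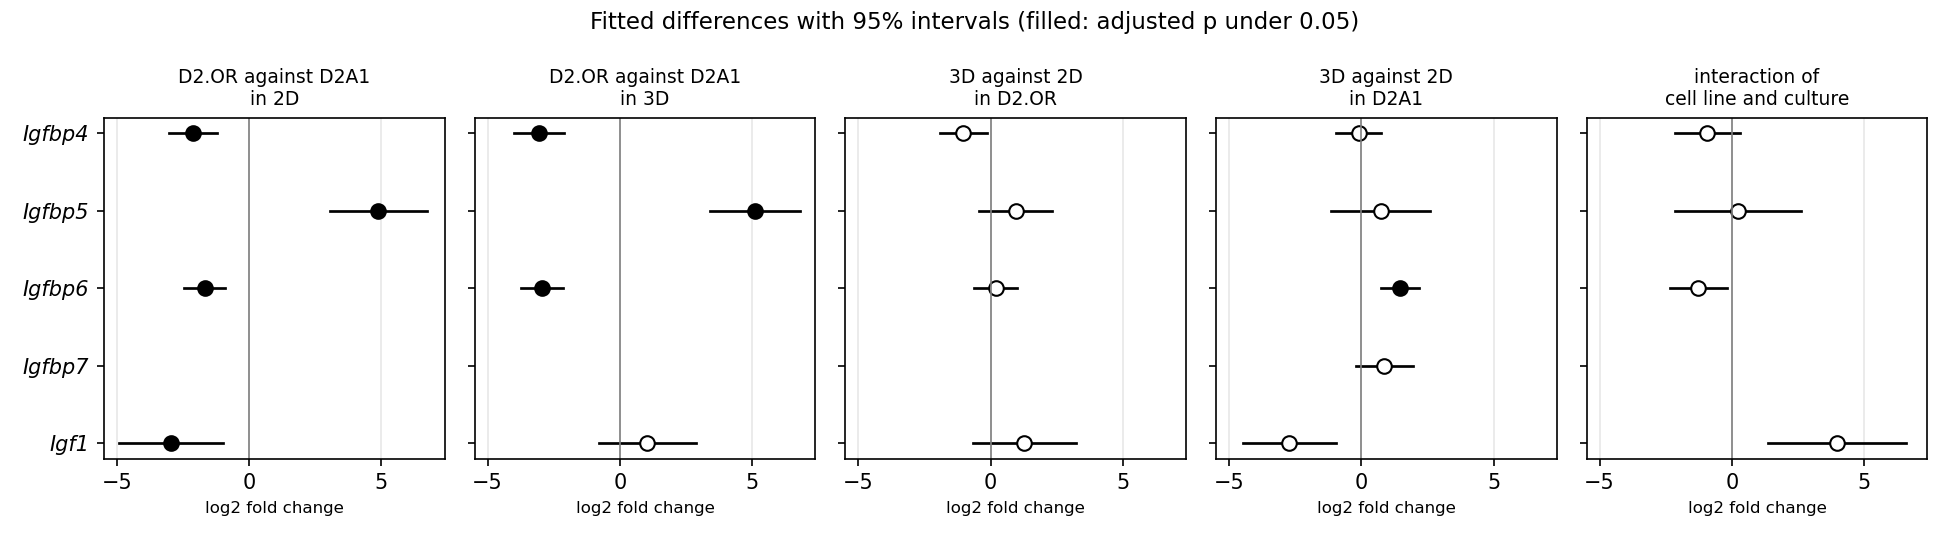
Fitted log2 fold changes of the tested members on the horizontal axis, with 95% intervals as bars, in the 5 comparisons. Filled circles have an edgeR adjusted p under 0.05, and Igfbp7 is drawn only where its groups were not at the floor. Igfbp5 lies to the right and Igfbp4 and Igfbp6 to the left of 0 in both comparisons of the lines, whereas Igf1 lies at -2.96 in 2D and at 1.03 in 3D.

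Between the lines in 2D all 5 tested members passed, 1 higher and 4 lower in D2.OR. The background was high, since 49.8% of all genes tested passed (25.4% higher and 24.4% lower). In 3D, 4 of 5 passed, 1 higher and 3 lower, against 53.8% of all genes (27.7% higher and 26.1% lower). These counts include Igfbp7, which had to differ to be tested, and they are given as a description. In the comparison of 3D with 2D, no member passed in D2.OR, where 1.62% of all genes did (0.838% higher and 0.785% lower), by edgeR or by DESeq2 (7.26% of all genes by DESeq2), and 1 member, Igfbp4, had an unadjusted p under 0.05, as did 17.6% of all genes. In D2A1, 1 member passed, against 3.48% of all genes (1.37% higher and 2.12% lower). For the interaction of cell line and culture, 0.0238% of all genes passed and no member did by edgeR, with 2 members, Igf1 and Igfbp6, at an unadjusted p under 0.05, as were 17.8% of all genes, and 1 member, Igf1, called by DESeq2, which called 5.96% of all genes. The 5 comparisons share libraries and are not independent of each other.

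Added together, the 7 Igfbp genes gave 658 ± 491 TPM in D2A1 2D, 514 ± 299 in D2A1 3D, 132 ± 99.1 in D2.OR 2D and 52.8 ± 18.1 in D2.OR 3D (SD, n = 3 each). Igfbp4 made up 82.7% to 99.2% of this sum in every library, so the sum followed Igfbp4. What remained differed between the lines. In D2A1 most of the remainder was Igfbp7, with 14.6% of the sum in D2A1 2D replicate 1, where Igfbp4 was low. In D2.OR 3D its largest part was Igfbp5, with 2.72%, 6.80% and 11.2% of the sum in replicates 1, 2 and 3.

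**Figure D3:**
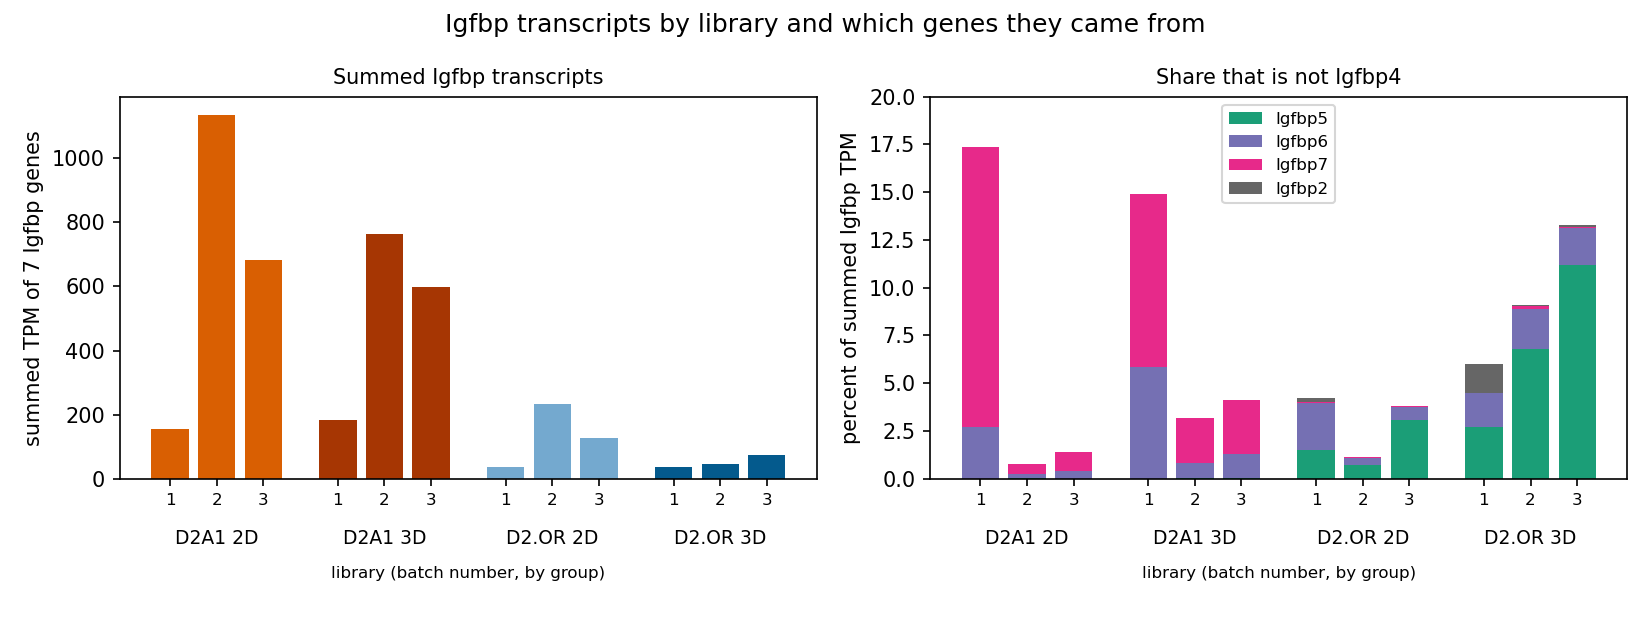
The summed TPM of the 7 Igfbp genes in each library (left, linear axis from 0) and the percent of that sum from Igfbp5, Igfbp6, Igfbp7 and Igfbp2 (right, stacked bars), by group and batch number. D2.OR 3D has the lowest mean sum, and Igfbp5 is the largest part of the bars in its 3 libraries.

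The proteases that cut the binding proteins, and the inhibitors of those proteases, were taken from a list of 24 genes of the IGF axis, of which 17 were tested. Pappa, whose product cuts IGFBP-4 and IGFBP-5, was at 0.76, 15.6 and 9.8 TPM in D2.OR 2D and at 6.96, 16.4 and 8.16 TPM in D2.OR 3D. In D2A1 it had 2 to 4 counts per library and did not exceed 0.01 TPM. The line with the higher Igfbp4 level had almost no Pappa transcript, and the groups of the lines did not overlap in either culture. Stc1, which encodes a stanniocalcin that inhibits pappalysin-1, was found in the same line as Pappa, at 0.74, 12.1 and 23.3 TPM in D2.OR 2D against at most 0.08 TPM in D2A1 2D, and at 0.89, 6.25 and 10.8 TPM in D2.OR 3D. Pappa and Stc1 passed the filter on low counts through D2.OR only and so had to differ between the lines, and their values are a description with no p. Both Pappa and Stc1 were lowest in replicate 1 of D2.OR, as Igfbp4 was.

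**Figure D4:**
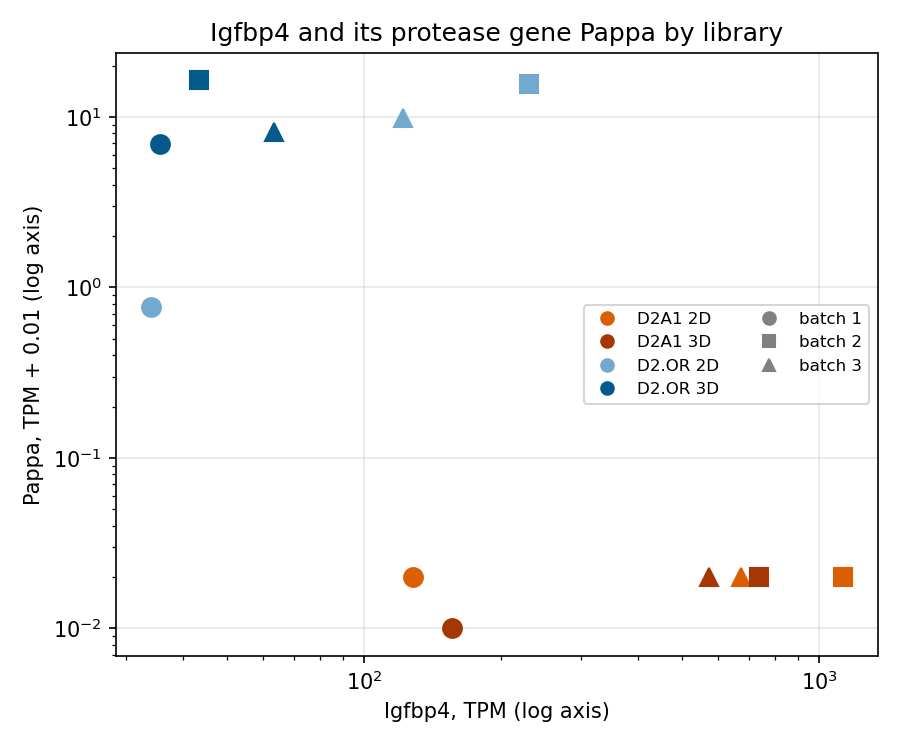
Pappa TPM (with 0.01 added) against Igfbp4 TPM in each of the 12 libraries, both on log axes, with color for the group and shape for the batch. The 6 D2A1 libraries lie at the bottom, at or under 0.01 TPM of Pappa, and the 6 D2.OR libraries lie above them.

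Stc2, the other stanniocalcin, was lower in D2.OR 2D, at 9.9, 5.28 and 5.86 TPM against 12.02, 24.1 and 14.3 TPM in D2A1 2D (log2 change -1.11 ± 0.30, edgeR adjusted p = 0.0133), and in 3D the change was -0.37 (adjusted p = 0.303). Adam12, which encodes a metalloproteinase that cuts IGFBP-3 and IGFBP-5, ran against Igfbp5. It was at 22.8, 2.17 and 0.96 TPM in D2A1 2D and at 15.3, 3.69 and 4.58 TPM in D2A1 3D, and it did not exceed 0.15 TPM in D2.OR. The log2 change of D2.OR against D2A1 was -5.24 ± 0.85 in 2D (adjusted p = 0.000931) and -7.47 ± 0.92 in 3D (adjusted p = 0.000187).

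Among the receptors, Igf1r, the signaling receptor of IGF-I, was at 10.2, 17.2 and 19.0 TPM in D2.OR 2D and at 9.96, 7.48 and 9.72 TPM in D2A1 2D. The log2 difference of D2.OR against D2A1 was 0.88 ± 0.21 in 2D (edgeR adjusted p = 0.00799) and 1.25 ± 0.22 in 3D (adjusted p = 0.0012). Igf2r, the receptor that clears IGF-II, was 1.36 ± 0.12 higher in D2.OR in 2D (adjusted p = 3.02e-05) and 1.52 ± 0.12 higher in 3D (adjusted p = 1.47e-05). It fell from 2D to 3D in both lines, from 56.6, 59.5 and 55.6 TPM to 34.3, 29.7 and 29.1 TPM in D2.OR (-0.94 ± 0.12, adjusted p = 0.0115) and from 21.4, 25.0 and 26.8 TPM to 12.8, 9.39 and 9.76 TPM in D2A1 (-1.11 ± 0.12, adjusted p = 0.00955). Insr, the insulin receptor, did not pass between the lines in 2D (0.05 ± 0.16, adjusted p = 0.827) and was 1.17 ± 0.17 higher in D2.OR in 3D (adjusted p = 4e-04). It fell from 19.5, 24.3 and 22.3 TPM to 12.3, 11.9 and 10.9 TPM in D2A1 (-0.88 ± 0.16, adjusted p = 0.037), and the difference between the culture effects of the lines did not pass (1.12 ± 0.23, adjusted p = 0.101). Igf2, the ligand of Igf2r, did not pass the filter and had at most 11 counts in a library. The insulin genes Ins1 and Ins2 had 0 counts throughout.

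Behind the receptors, Irs1, the docking protein of the insulin and IGF-1 receptors, was at 24.6, 29.2 and 29.4 TPM in D2.OR 2D against 7.95, 4.77 and 4.84 TPM in D2A1 2D (2.43 ± 0.28, edgeR adjusted p = 0.000149), and the 3D difference was 3.02 ± 0.29 (adjusted p = 4.6e-05). Grb14, an adaptor that inhibits the insulin receptor, was 2.39 ± 0.28 higher in D2.OR in 2D (adjusted p = 0.000164) and 3.07 ± 0.29 higher in 3D (adjusted p = 4.39e-05). Shc1, an adaptor toward the MAP kinase pathway, was lower in D2.OR in 2D (-0.99 ± 0.20, adjusted p = 0.00335), and its 3D difference of -0.35 did not pass (adjusted p = 0.17). Igf2bp1, which encodes an RNA-binding protein named for Igf2 mRNA, was lower in D2.OR in 3D (-1.13 ± 0.35, adjusted p = 0.023).

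Of the 17 tested genes of the IGF axis, 8 were higher and 3 lower in D2.OR in 2D and 6 did not pass, and in 3D 11 were higher, 2 lower and 4 did not pass. Over all genes tested, 25.4% were higher and 24.4% lower in 2D, and 27.7% and 26.1% in 3D. Pappa and Stc1, which had to differ, are among the higher genes in both counts. The median log2 fold change of the tested genes was 0.54 in 2D and 1.17 in 3D, beside -0.0034 and 0.0005 for all genes tested. Both medians of the axis include Pappa and Stc1, which lie above them, so these medians are a description. From 2D to 3D, 1 of 17 passed in D2.OR (Igf2r, lower), beside 1.62% of all genes, and 2 passed in D2A1 (Igf2r and Insr, lower), beside 3.48%, and none passed for the interaction by edgeR, with 6 of 17 at an unadjusted p under 0.05 (17.8% of all genes) and 1 by DESeq2 (5.96%). With replicate 1 of every group left out, 11 passed in D2A1 and 5 in D2.OR, and with replicate 2 or replicate 3 left out none passed in either line. Leaving out replicate 2 or 3 of either D2.OR group took the D2.OR count to 0, and it was 2 without D2A1 2D, D2A1 3D or D2.OR 2D replicate 1. In D2A1 it was 0 without D2A1 2D replicate 2 or D2A1 3D replicate 2 or 3, 1 without D2A1 2D replicate 3 or without replicate 2 or 3 of either D2.OR group, 8 without D2A1 2D replicate 1 and 5 without D2A1 3D replicate 1. Over all genes, 6120 passed in D2A1 and 1412 in D2.OR without replicate 1, and 0 or 1 in either line without replicate 2 or 3. In D2A1, 30.3% of all genes passed without D2A1 2D replicate 1 and 12.8% without D2A1 3D replicate 1, against 3.48% in the main fit. Leaving out replicate 2 or 3 of a D2A1 group gave 0% to 0.121%, and of a D2.OR group 0.427% to 0.609%. In D2.OR, 3.67%, 3.03% and 1.37% passed without D2A1 2D, D2A1 3D and D2.OR 2D replicate 1, respectively. It was 0.0116% to 0.18% there without replicate 2 or 3 of a D2.OR group.

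The IGFBP fold is also carried by secreted proteins that are not classed as IGF binding proteins, among them the CCN family and Esm1, and 12 of 13 genes of this kind were tested. In 2D, 9 were higher and 1 lower in D2.OR, and in 3D again 9 were higher and 1 lower, with median log2 fold changes of 1.96 and 2.90. The shares of all genes called higher were again 25.4% and 27.7%. Esm1, Igfbpl1 and Htra4 passed the filter through D2.OR only and had to differ, so these counts and medians are a description. Esm1, an endothelial cell-specific proteoglycan gene by name, was at 17.8, 11.7 and 11.8 TPM in D2.OR 2D and at 10.6, 6.84 and 8.83 TPM in D2.OR 3D, against at most 1 count in any D2A1 library. With D2A1 set at the floor of 3 counts per library, Esm1 exceeded it by at least 311-fold in 2D and by at least 232-fold in 3D.

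Ctgf, a matricellular target gene of YAP, was at 413, 369 and 322 TPM in D2.OR 2D against 140, 17.9 and 13.9 TPM in D2A1 2D (log2 change 3.92 ± 0.77, edgeR adjusted p = 0.00262), and at 1266, 389 and 143 TPM in D2.OR 3D against 53.8, 1.97 and 3.0 TPM in D2A1 3D (5.61 ± 0.83, adjusted p = 0.000488). Wisp2, a further CCN gene, was at 492, 749 and 571 TPM in D2.OR 2D and at 27.6, 110 and 90.1 TPM in D2A1 2D (3.15 ± 0.48, adjusted p = 0.00069), with a 3D difference of 4.97 ± 0.53 (adjusted p = 7.67e-05). Nov was the gene of this group that was lower in D2.OR, with a level of 0.38, 0.31 and 0.16 TPM against 2.17, 1.82 and 1.08 TPM in 2D (-2.46 ± 0.38, adjusted p = 0.000733), and a difference of -1.80 ± 0.36 in 3D (adjusted p = 0.00274).

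**Figure D5:**
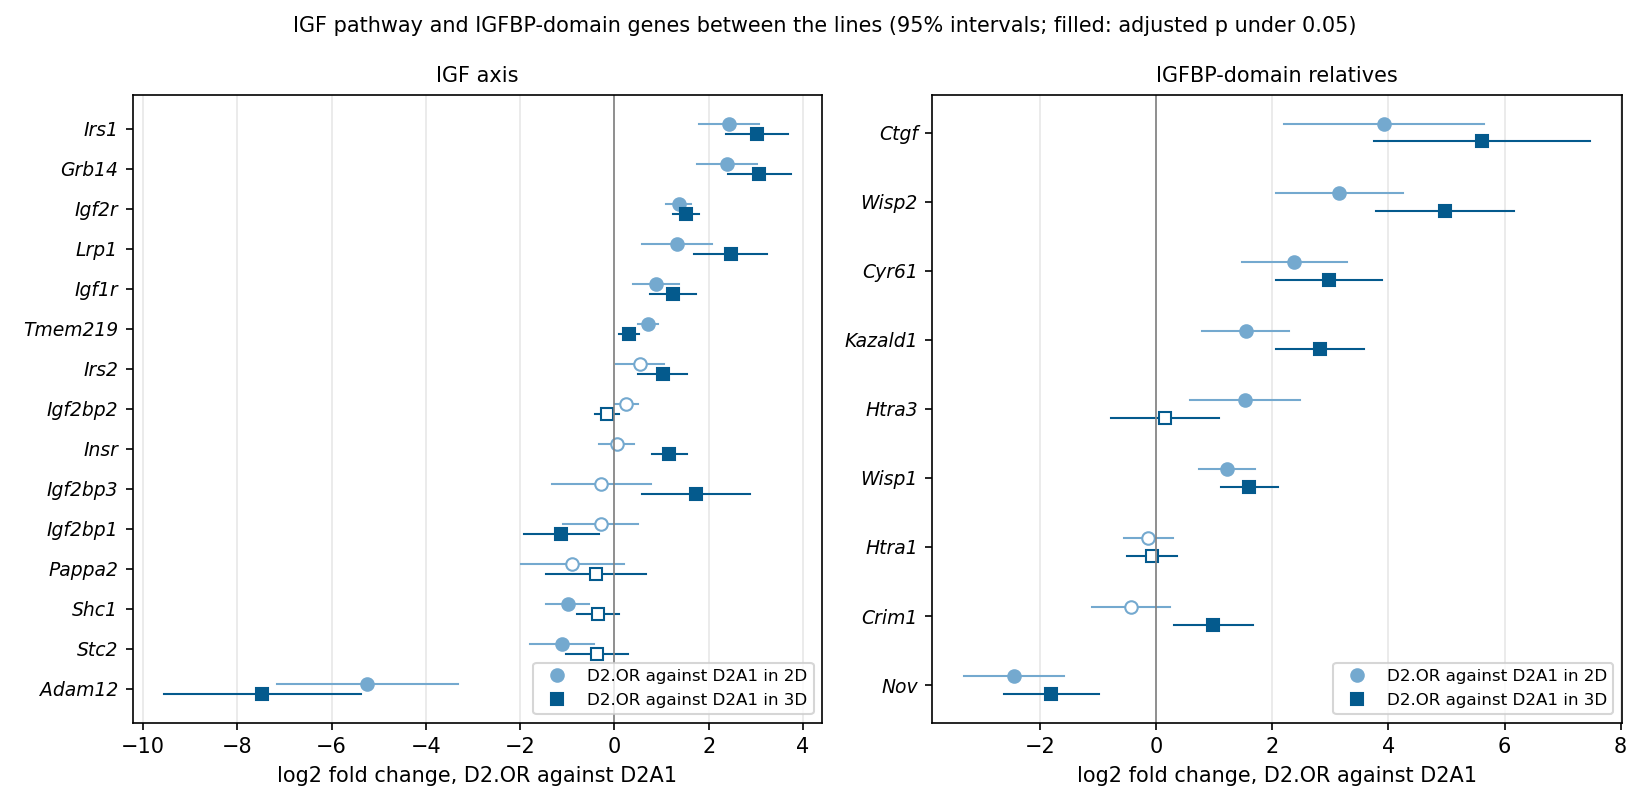
Log2 fold changes of D2.OR against D2A1 on the horizontal axis, with 95% intervals, in 2D (circles) and 3D (squares) for tested genes of the IGF axis (left) and IGFBP-domain relatives (right). Filled symbols have an edgeR adjusted p under 0.05, and genes at the floor of 3 counts in a group or tested through 1 line only, Pappa, Stc1 and Esm1 among them, are not drawn. Adam12 lies farthest to the left, and Nov is the relative with filled symbols left of 0.

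With culture, 2 of the 12 relatives passed in each line, beside 1.62% of all genes in D2.OR and 3.48% in D2A1. Htra1, which encodes a secreted serine protease able to cut IGFBP-5, fell in both, from 291, 391 and 303 TPM to 169, 109 and 78.5 TPM in D2.OR (-1.55 ± 0.20, edgeR adjusted p = 0.0115) and from 410, 428 and 340 TPM to 160, 101 and 99.8 TPM in D2A1 (-1.61 ± 0.19, adjusted p = 0.0144). Kazald1, a secreted protein with an IGFBP domain and a Kazal domain, rose in D2.OR from 21.7, 11.6 and 7.36 TPM to 55.8, 48.2 and 42.1 TPM (1.86 ± 0.32, adjusted p = 0.0332). Wisp1, a CCN gene, fell in D2A1 from 40.2, 26.1 and 25.8 TPM to 17.7, 12.99 and 10.8 TPM (-1.08 ± 0.21, adjusted p = 0.041). These culture counts were not stable. In D2.OR no relative passed without replicate 2 or 3 of either D2.OR group or without the batch term, and 1 passed without D2A1 2D replicate 2 or D2A1 3D replicate 2 or 3. In D2A1 none passed without replicate 2 or 3 of either D2A1 group, 1 passed without replicate 2 or 3 of either D2.OR group, and 4 passed without D2A1 3D replicate 1. The shares of all genes in these D2A1 fits were 0% to 0.121%, 0.427% to 0.609% and 12.8%, respectively, against 3.48% in the main fit. In D2.OR they were 0.0116% to 0.18% without replicate 2 or 3 of a D2.OR group and 0.119% without the batch term. They were 0.596% to 0.968% in the D2.OR fits where 1 relative passed. Beside the culture changes of the relatives, the summed luminal markers were lower and the summed adipocyte markers higher in D2.OR 3D than in D2.OR 2D. The part of these markers in the culture changes was not tested. None of the relatives passed for the interaction by edgeR, with 4 of 12 at an unadjusted p under 0.05 (17.8% of all genes) and 1 by DESeq2 (5.96%).

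The genes with the profile most like each tested member were found among 12705 genes by the root-mean-square difference of log2 CPM, centered on each gene's mean, over the 12 libraries. For Igfbp4 they were Mgst2, a microsomal glutathione transferase gene, and the unnamed gene model Gm37261, at 0.69 and 0.71. For Igfbp5 they were Grik2, a glutamate receptor subunit gene, and Abcb1a, a drug efflux transporter gene, at 0.86 and 0.95. For Igfbp6 they were Mtfp1 and Mns1, at 0.41 and 0.42, with Mns1 at 5.68 to 8.47 TPM in D2A1 2D, 9.54 to 12.4 TPM in D2A1 3D and at most 2.12 TPM in D2.OR. For Igfbp7 they were Bmyc, a Myc-related gene, and Pou4f1, a transcription factor gene, at 0.49 and 0.56, and Pou4f1 was listed at 0 TPM in all 6 D2.OR libraries. For Igf1 they were Mc5r, a melanocortin receptor gene, and Megf10, at 0.74 and 1.005. These profiles are descriptions over libraries that share lines, cultures and batches.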

How the data were processed

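RNA from 12 cultures was sequenced, and the submitters' processing notes name FastQC 0.11.4, Trimmomatic 0.32, STAR 2.5.3, RSEM 1.3.0 and the genome build GRCm38, which the authors used for quality checks, trimming, alignment and gene quantification. The deposited estimated counts (expected counts), of which 10.7% to 11.8% per library were not whole, were rounded before testing. The deposited TPM values were used for levels, and the TPM of the series table equaled those of the libraries. The FPKM values that RSEM wrote beside them, as deposited, were not used. In the work reported here, edgeR 4.0.16 (R 4.3.3) was run with TMM, its filter on low expression, a quasi-likelihood test, group and batch as terms and all 12 libraries. DESeq2 1.42.0 and limma 3.58.1 on log2(TPM + 1) and log2(TPM + 0.1) were alternatives. The script was tested on simulated data.

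The replicate number marks a batch and a lane in the labels. Deviations from the group means correlated with a median of 0.267 between libraries of the same number and -0.195 otherwise, so the number was kept as a block.

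The members and gene lists were chosen with earlier results of these data known. All 8 members were named, with up to 3 rises and 3 falls per list and comparison among genes with adjusted p under 0.05, at least 1 TPM in a group and 1 direction in all 3 batches, plus Igf1r, Igf2r, Insr and Igf2, and the nearest profiles for each tested member (mean of at least 1 CPM). Ratios against a group with at most 3 counts in every library are bounds at 3 counts per library. Promoter windows came from RefSeq (GRCm38.p6), with all 8 members matched by symbol.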

Additional observations from a re-analysis of the deposited data

How the results depend on the processing

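Leaving out the replicate block gave 3 members called between the lines in 2D (5 with it), 0 in D2A1 between cultures, and 1 gene of the IGF axis and 1 relative in D2A1 and 0 relatives in D2.OR, and it ended the 2D calls of Igfbp4 and Igf1. Requiring at least 10 counts in every library left 2 members called in 2D and 2 in 3D, because fewer members were tested. With only the libraries of the groups compared, 1 member and 3 genes of the IGF axis were called between cultures in D2.OR, and 0 members, 0 genes of the axis and 0 relatives in D2A1. By DESeq2 the culture comparison called 2 members, 6 genes of the axis and 5 relatives in D2A1, 2 genes of the axis and 4 relatives in D2.OR, and for the interaction 1 member, 1 gene of the axis and 1 relative. Without the filter on low counts, 2 members and 4 genes of the axis were called in D2A1. With limma on log2(TPM + 0.1), 0 members and 1 relative were called there. The causes were not tested. Calls over all genes moved too. Leaving out the block gave 0.119% in D2.OR and 0.309% in D2A1 between cultures and 43.9% between the lines in 2D. The groups compared alone gave 5.16% in D2.OR and 0.0981% in D2A1, DESeq2 gave 7.26%, 23.1% and, for the interaction, 5.96%, no filter gave 3.75% in D2A1, and limma on log2(TPM + 0.1) gave 1.44% there.

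The sign of Igf1 in 3D between the lines turned to -0.0142 with limma on log2(TPM + 1) and to -0.0337 on log2(TPM + 0.1), and that of Igfbp5 for the interaction to -0.0328 by DESeq2.

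With 1 library or 1 replicate number left out in turn, members called ran from 4 to 5 between the lines in 2D and from 4 to 5 in 3D, from 0 to 1 between cultures in D2.OR, from 0 to 3 in D2A1 and from 0 to 2 for the interaction. Genes of the IGF axis called ran from 9 to 13 in 2D, 10 to 14 in 3D, 0 to 5 in D2.OR, 0 to 11 in D2A1 and 0 to 5 for the interaction, and relatives from 6 to 10, 8 to 10, 0 to 4, 0 to 6 and 0 to 3. The log2 changes that crossed 0 were Igfbp4 in D2A1 (-0.39 to 0.16), Igfbp5 in D2A1 (-0.17 to 3.41) and for the interaction (-2.47 to 1.11), Igfbp6 in D2.OR (-0.18 to 0.57) and Igfbp7 in D2.OR (-0.88 to 0.74) (fitted on 0 to 3 counts per library, which is no fold), none of which was called. Over all genes, calls ran from 4227 to 9062 between the lines in 2D, 5273 to 10298 in 3D, 0 to 1412 in D2.OR, 0 to 6120 in D2A1 and 0 to 2999 for the interaction. Between the lines, Igfbp5 and Igfbp6 kept their direction and their call in every alternative in which they were tested, in 2D and in 3D. Few reads stood behind Igf1, Igfbp5 in D2A1 and Igfbp7 in D2.OR, and the effect of depth was not tested.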
